A study of Homo sapiens with 58 samples.

Results

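The cytosolic ribosomal protein genes encode the protein subunits of the ribosome that translates nuclear mRNAs. They were taken by symbol, as every gene named RPL or RPS with a number and at most a final A, with RPLP0, RPLP1, RPLP2 and RPSA. This gave 76 of the 19084 genes in the table of counts, 46 of the large subunit and 30 of the small subunit. RNA-seq libraries came from H1, an established line of human embryonic stem cells with a wild-type genotype, as it was led through presomitic mesoderm, the tissue that is cut into segments, to somites, the segments themselves. The daily series had 3 libraries on each of 4 days. Day0 cells were undifferentiated, in E8 medium. Day1 followed 24 hours of E8 medium with 100 ng/mL activin A and 3 µM CHIR99021, which activates Wnt signalling. Day2, presomitic mesoderm, followed a further day in E6 base medium, which lacks FGF2 and TGFβ1, with 3 µM CHIR99021, 100 ng/mL FGF2, 100 ng/mL NOGGIN and 2 µM A83-01, an inhibitor of the activin and nodal receptors. The somite medium of Day3 held 1 µM PD0325901, a MEK inhibitor, 2.5 µM IWR1, a Wnt inhibitor, 2 µM A83-01 and 100 ng/mL NOGGIN in E6. A further 46 libraries of presomitic mesoderm came from 23 times, 2 libraries each, every 30 min from 30 to 690 min, and for this course the labels state no medium and no starting event. All groups share this genotype. Whether replicates were grown separately is not stated in the labels, so each p-value rests on a spread between libraries that may be only technical.

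The Day2 libraries stood apart from the other daily libraries in depth and detection. They held 3.16 to 3.6 M expected counts, against 4.36 to 7.81 M in the 9 others, and 12056 to 12532 genes were detected at an equal depth of 2500000 counts, against 13061 to 13892. Course libraries held 2.53 to 8.96 M counts. Pluripotency markers summed to 1049 to 1147 CPM (counts scaled to a common library size) at Day3, against 5915 to 6232 CPM at Day0. Mesendoderm markers were highest at Day1 (1374 to 1637 CPM). Presomitic markers summed to 226 to 530 CPM at Day2, 219 to 282 CPM at Day3 and 712 to 1350 CPM in the course. Most of the Day3 sum was DLL1, which averaged 218 CPM, against 54.2 CPM at Day2. TBX6, MSGN1, DLL3, HES7 and RSPO3 were all lower on average at Day3 than at Day2. MSGN1 averaged 0.234 CPM at Day3 against 29.2 CPM at Day2, and RSPO3 12.1 CPM against 221 CPM. Somite markers summed to 75.9 to 88.9 CPM at Day2, 786 to 1009 CPM at Day3, where PAX1, a marker of later somites, was at 0, and 124 to 1380 CPM in the course, so the course libraries carried markers of both stages. The 5 neural markers, of which NES was the highest on average, summed to 575 to 742 CPM at Day0, 651 to 799.7 CPM at Day1, 1315 to 1534 CPM at Day2, 1869 to 2411 CPM at Day3 and 1129 to 4226 CPM in the course. They did not move together. Among the 4 days, NES (1707 CPM) and SOX1 (26.6 CPM) averaged highest at Day3. STMN2 (443 CPM), MAP2 (205 CPM) and PAX6 (54.9 CPM) averaged highest at Day2, against 286, 86.4 and 29.3 CPM at Day3. The 5 endoderm markers, of which CXCR4 was the highest on average, summed to at most 18.4 CPM at Day0, 47.9 CPM at Day1, 94.9 CPM at Day2, 53.7 CPM at Day3 and 341 CPM in the course, with SOX17 and FOXA2 at 0 at Day2 and Day3. Markers of endothelium and blood summed to at most 6.02 CPM in any library. The part of other cell types in the members' values was not tested.

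Each cytosolic ribosome holds a single copy of nearly every ribosomal protein, so cells keep the synthesis of the set in balance and degrade subunit proteins made in excess. The mRNAs are among the most abundant in growing cells and mostly start with a C followed by a tract of pyrimidines, the 5′ terminal oligopyrimidine or TOP motif, through which mTOR signalling and LARP1 control their translation. Production of ribosomes is high in pluripotent and proliferating cells, and several ribosomal proteins have tissue-specific mutant phenotypes, among them RPL38 in the axial skeleton of the mouse.

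Transcription start windows of members that moved in opposite directions between Day1 and Day2 are shown to set their pyrimidine tracts side by side. The windows run from 10 bases before to 20 bases from the RefSeq start (GRCh38.p14), written along the transcribed strand, with the longest run of C and T in capitals.
RPL19: agCTCTTTCCTTTCgctgctgcggccgcag
RPL27: gtgaaaggttagcggaagtgTCCTTCTTTC
RPS12: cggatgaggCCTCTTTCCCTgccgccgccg
RPS21: ctagctgCTTCCTTTCTCTCTCgcgcgcgg
RPS28: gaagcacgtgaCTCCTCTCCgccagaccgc
RPLP2: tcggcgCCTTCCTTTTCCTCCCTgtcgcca
RPS10: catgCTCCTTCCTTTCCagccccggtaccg

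The windows of RPL19 (chr17:39200313-39200342), RPL27 (chr17:42998409-42998438) and RPS12 (chr6:132814559-132814588), 3 members that rose at Day2, lie on the plus strand. So do those of RPS21 (chr20:62387093-62387122), RPS28 (chr19:8321486-8321515) and RPLP2 (chr11:809957-809986), which fell at Day2, while the window of RPS10 (chr6:34426050-34426079), which also fell, lies on the minus strand. All 7 windows hold a pyrimidine run, but the start base was a C inside it only in RPS12, RPS21, RPLP2 and RPS10, and was no C in RPL19, RPL27 and RPS28, which thus lack a TOP motif at this start. RefSeq starts were matched by symbol for 61 of the 76 members, with 76 starts in all, and 15 had no entry. A C at the start base with at least 4 more C or T directly after it was found at 46 of the 76 member starts (60.5%), against 4.07% of the 35116 starts of all genes. In the 300 bases around the start, the letters CCGGAA, the core of ETS factor motifs, were on either strand of 51.3% of member starts and 17.2% of all starts. AAGATGG, the core of the YY1 motif, was in 10.5% of member starts and 5.84% of all, and TATAAA in 6.58% and 11.5%. The run of pyrimidines from the start base, set to 0 where that base was no C, had a median of 8.5 bases in the 22 matched members that rose at Day2 and 9 bases in the 6 that fell.

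The members' mRNAs differed widely in level. On the TPM scale, which corrects for transcript length, RPL19 was highest at 6632 ± 2383 TPM (mean ± SD, n = 58 libraries), followed by RPL26 at 6149 ± 1448 TPM, RPS12 at 6118 ± 1983 TPM, RPS21 at 6059 ± 1868 TPM and RPL11 at 5960.1 ± 724 TPM. RPL19 lies at the interface of the subunits, and RPL26 beside the exit of the peptide tunnel. These 5 levels overlapped within their spread. The lowest were RPS29 at 146 ± 53.3 TPM, RPL13 at 215 ± 43.3 TPM, RPL10 at 372 ± 54.3 TPM, RPL27A at 440.1 ± 55.9 TPM and RPL29 at 444 ± 103 TPM. The length used for TPM was 6.73, 7.31 and 3.45 times the members' median for RPL13, RPL27A and RPL10. The low TPM of these 3 depends on that length, so they may not be the least abundant mRNAs. RPS29 overlapped with RPL13 within their spread, RPL13 did not reach RPL10, and RPL10, which joins the large subunit late in its assembly, overlapped with RPL27A and RPL29. Mean levels of the 76 members spanned 146 to 6632 TPM. The human genome annotation (GENCODE v29) lists 1110 pseudogenes named after members, with a median of 9.5 and up to 91 each, so reads may be split between a member and its copies. RPL36A, RPL17 and RPS10 also share sequence with a near-identical copy or a read-through gene, which makes their levels uncertain.

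The members' share of all counts was lowest at Day0. It was 4.46%, 4.10% and 4.47% at Day0, 5.56%, 5.56% and 5.43% at Day1, and 6.80%, 7.26% and 5.90% at Day2. The Day3 libraries held 6.99%, 6.28% and 5.19%. Each Day1, Day2 and Day3 library was above every Day0 library, while Day3 replicate 3 was below all Day1 libraries. The share of TPM was 12.9% ± 0.433 at Day0, 15.9% ± 0.0601 at Day1, 18.7% ± 1.56 at Day2 and 17.6% ± 2.30 at Day3 (SD, n = 3 each). In the course the share of counts ran from 4.78% in replicate 1 at 690 min to 8.0% in replicate 2 at 450 min. In bulk RNA, fewer cells of a type and less RNA per cell cannot be told apart.

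**Figure D1:**
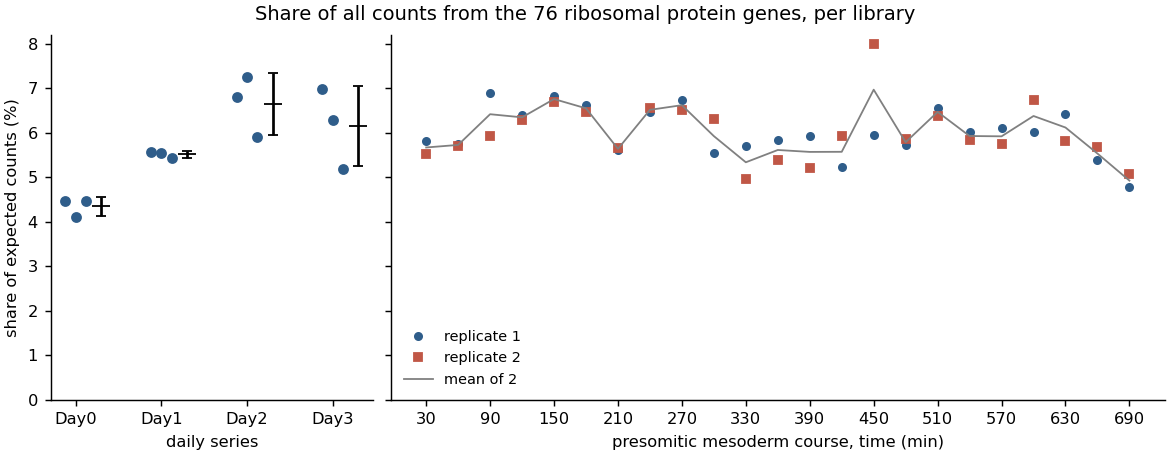
Percentage of expected counts from the 76 members in each library, for the daily series on the left (points, with mean and SD of 3 beside them) and the course on the right against time in min (circles and squares for the replicates, line for their mean). Day0 libraries sit at 4.10% to 4.47%, below every other library, and replicate 2 at 450 min is highest at 8.0%.

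Most members differed among the 4 days. By edgeR's quasi-likelihood F test with Benjamini-Hochberg adjustment over all 12765 genes tested, 57 of the 76 members were called at an adjusted p under 0.05 (75%), where 43.6% of all genes were called. All 76 members passed the filter on low counts in both series. Of the large subunit members 31 of 46 were called (67.4%), and of the small subunit members 26 of 30 (86.7%).

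**Figure D2:**
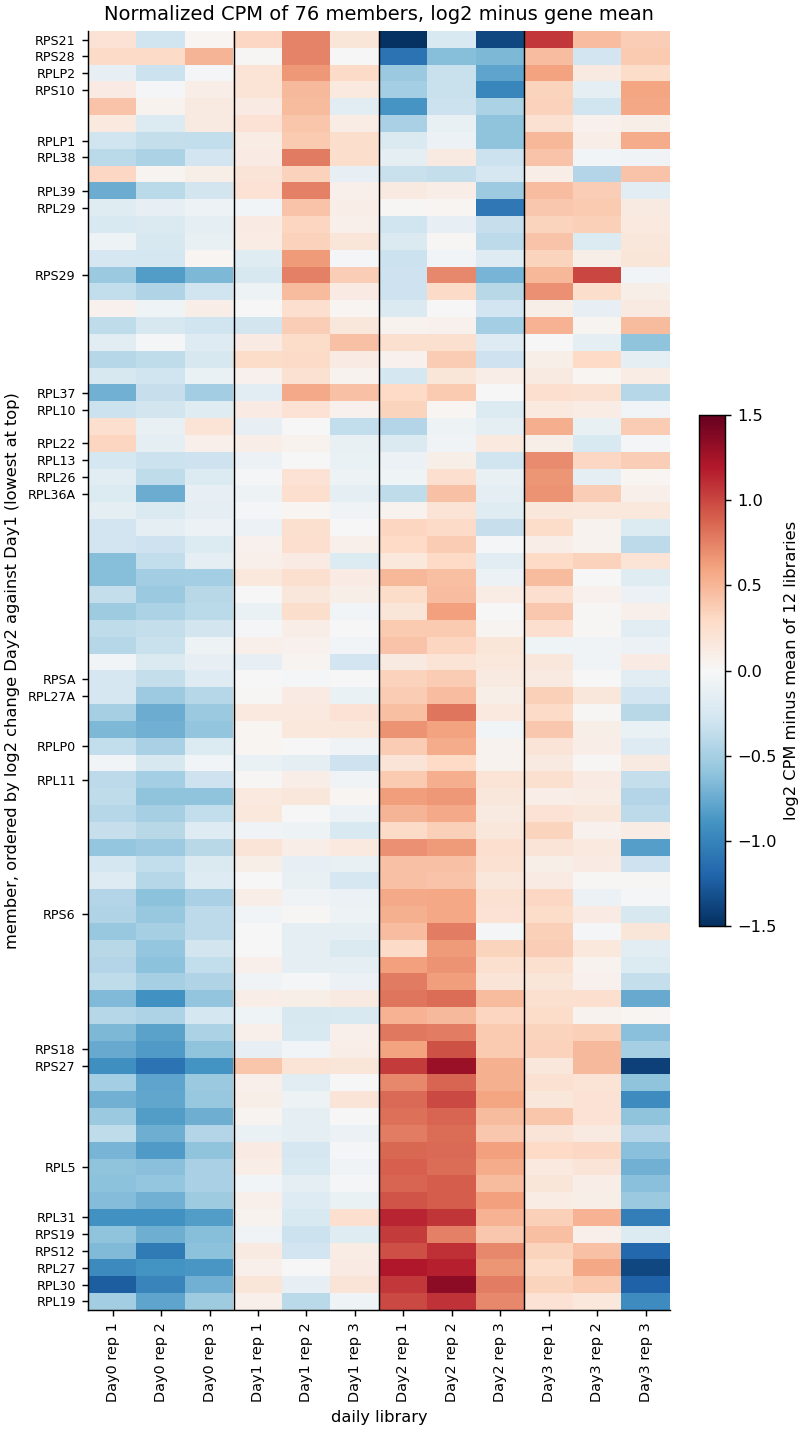
Normalized CPM of the 76 members (rows) in the 12 daily libraries (columns), as log2 minus the gene's mean over the 12, with members ordered by their change at Day2 against Day1 and names given for those chosen by the naming rule. The Day0 columns are mostly below the mean, the Day2 columns run from low values at the top (RPS21, RPS28) to high values at the bottom (RPL30, RPL19), and Day3 replicate 3 is low for the members at the bottom.

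At Day1, in mesendoderm, 16 of the 76 ribosomal protein mRNAs rose, in both subunits. The log2 change from Day0 was above 0 for 71 of the 76 members, with a median of 0.42, where 49% of all genes were above 0 with a median of -0.01. Those called higher (21.1%) were 9 of the large and 7 of the small subunit, where 3.69% of all genes were called higher. No member was called lower (edgeR), where 3.6% of all genes were. At an unadjusted p under 0.05 there were 52 members higher and 0 lower, and DESeq2 called 25 higher and 0 lower. Shares of all genes are not given for these 2 settings, so their counts are not read against a background. The 4 largest called rises were of small proteins. RPS27, a zinc finger protein of the small subunit, read 181, 157 and 154 CPM at Day1, against 71.5, 62.9 and 72.9 CPM at Day0. Its libraries did not overlap, and it was 2.37-fold higher, a log2 change of 1.25 ± 0.32 (SE), adjusted p = 0.0259 with edgeR. RPL30 read 325, 264 and 329.8 CPM at Day1, against 122, 145 and 175 CPM at Day0, a log2 change of 1.06 ± 0.30 (SE), adjusted p = 0.0379 with edgeR. RPL39, which lines the peptide tunnel, read 69.2, 100.3 and 62.9 CPM at Day1, against 35.5, 45 and 49.3 CPM at Day0, a log2 change of 0.84 ± 0.25 (SE) with adjusted p = 0.0481. RPL37 read 234, 387 and 356 CPM at Day1, against 159, 207 and 182 CPM at Day0, a log2 change of 0.84 ± 0.21 (SE) with adjusted p = 0.0205. In each of these members every Day1 library was above every Day0 library. RPL38 read 59.1, 93.1 and 65.4 CPM at Day1, against 41.3, 39.1 and 44.6 CPM at Day0 (log2 0.80), and RPLP1 of the ribosomal stalk 363, 441 and 401 CPM, against 272, 263 and 261 CPM (log2 0.60), both called higher.

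The number of higher calls at Day1 moved with single libraries and with the fit. It was 4 without Day0 replicate 1, 1 without Day0 replicate 2, Day0 replicate 3 or Day1 replicate 2, 2 without Day1 replicate 1, 0 without Day1 replicate 3 and 35 without Day3 replicate 3, and no member was called lower under any of these. With only the 6 libraries of Day1 and Day0 it was 47, and with limma on log2(TPM + 1) it was 7. The share of all genes called in each of these refits is not given. The counts thus show how the calls depend on the fit and are no result about the members alone. Across the 76 members, which share libraries, the change at Day1 had a Spearman correlation of -0.43 with the GC content of the transcript and of -0.37 with its length, given as a description; their part in the result was not tested. Genes no longer than the upper quartile of the members (452 tested) had a median log2 change of 0.27 at Day1, against 0.42 for the members.

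**Figure D3:**
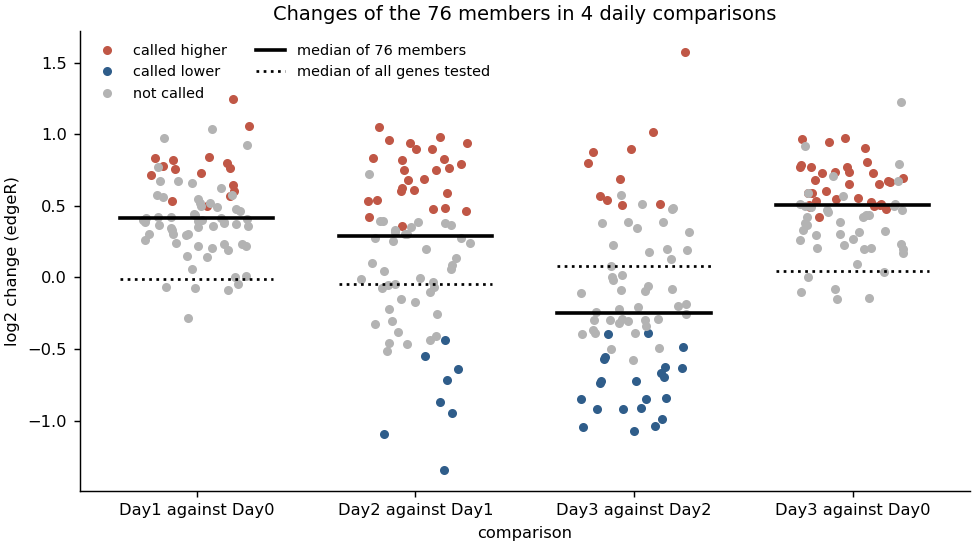
Log2 change of each of the 76 members (points) in 4 daily comparisons, coloured by the edgeR call at an adjusted p under 0.05, with the median of the members (solid line) and of all genes tested (dotted line). Called members lie on the upper side at Day1 against Day0 and Day3 against Day0, and on both sides at Day2 against Day1 and Day3 against Day2, whose member medians of 0.29 and -0.25 become 0.14 and -0.01 with scaling by library totals.

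At Day2, in presomitic mesoderm, 27 members rose against Day1 (35.5%), where 8.67% of all genes were called higher. A further 8 fell (10.5%), a share near that of all genes called lower (11.5%). The members' changes ran from -1.34 to 1.05 log2, and the spread of members around their means (SD of log2 values within a library) was 0.67 to 0.80 in the Day2 libraries, against 0.20 to 0.41 in the other daily libraries. Of the large subunit 15 were higher (32.6%) and 3 lower (6.52%), and of the small 12 higher (40%) and 5 lower (16.7%). The balance of calls shifted with the scaling, to 14 higher and 12 lower with library totals and 11 higher and 14 lower with limma on log2(TPM + 1), while no member named here changed direction under either. Library totals moved the median of all genes by -0.15 log2. Relative to that median the members' median stood at 0.33 with either scaling. A change of scaling shifts all genes almost alike, so this difference could not move and does not show which balance of calls is right.

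Among large subunit members that rose, RPL19 read 5422, 5793 and 4507 CPM at Day2, against 2889, 2066 and 2625 CPM at Day1. It was 2.07-fold higher, a log2 change of 1.05 ± 0.22 (SE), adjusted p = 0.00435 with edgeR. RPL30 read 597, 728 and 491 CPM at Day2, against 325, 264 and 329.8 CPM at Day1, and was 1.98-fold higher (adjusted p = 0.0273). RPL27 read 395, 386 and 274 CPM at Day2, against 182, 173 and 188 CPM at Day1, a log2 change of 0.96 ± 0.32 (SE) with adjusted p = 0.0412 in edgeR. The libraries of the days did not overlap for any of these. RPL5, which carries 5S rRNA into the large subunit together with RPL11, read 4835, 4642 and 3824 CPM at Day2, against 2766, 2214 and 2503 CPM at Day1 (log2 0.83, adjusted p = 0.00577). Its partner RPL11 read 1935, 2143 and 1699.9 CPM at Day2, against 1495, 1576 and 1419 CPM at Day1, and was not called (adjusted p = 0.0889).

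Among small subunit members that rose, RPS12 read 2894, 3169 and 2446 CPM at Day2, against 1623, 1212 and 1602 CPM at Day1, a log2 change of 0.94 ± 0.28 (SE) with adjusted p = 0.0281 in edgeR. RPS19, which is mutated in Diamond-Blackfan anaemia, read 1589.8, 1299 and 1019.8 CPM at Day2, against 746, 617 and 681 CPM at Day1, and was 1.91-fold higher (adjusted p = 0.00182). RPS6, the substrate of the S6 kinases, read 1502, 1553 and 1201 CPM at Day2, against 1008, 1052 and 983 CPM at Day1 (log2 0.48, adjusted p = 0.0263). Every Day2 library was above every Day1 library for all of these.

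The 8 members that fell at Day2 were RPS21, RPS28, RPLP2, RPS10, RPS20, RPL12, RPLP1 and RPS2. RPS21 read 218, 517 and 236 CPM at Day2, against 755, 1016 and 691 CPM at Day1. It was 2.54-fold lower, a log2 change of -1.34 ± 0.28 (SE), adjusted p = 0.0038 with edgeR, and its libraries did not overlap. RPS28, beside the exit channel of the mRNA, read 89.8, 125 and 122 CPM at Day2, against 197, 325 and 194 CPM at Day1, and was 2.13-fold lower (adjusted p = 0.004). RPS10, on the head of the small subunit, read 139, 158 and 100.3 CPM at Day2, against 228, 278 and 219 CPM at Day1, a log2 change of -0.87 ± 0.20 (SE) with adjusted p = 0.00671.

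The ribosomal stalk recruits the translation factors that hydrolyse GTP. Its tip proteins fell, RPLP2 to 158, 185 and 135 CPM at Day2, against 269.6, 367 and 285 CPM at Day1 (log2 -0.95, SE 0.18, adjusted p = 0.00177), and RPLP1 to 289.5, 315 and 221 CPM at Day2, against 363, 441 and 401 CPM at Day1 (log2 -0.55, adjusted p = 0.0249). RPL12 at the base of the stalk also fell, to 706, 914 and 647 CPM at Day2, against 1149.6, 1315 and 1062 CPM at Day1 (log2 -0.64, adjusted p = 0.00777). RPLP0, which anchors RPLP1 and RPLP2 to the ribosome, read 2191, 2476 and 1747 CPM at Day2, against 1715, 1689.9 and 1624 CPM at Day1, and was not called (adjusted p = 0.0911). All 3 Day2 libraries of RPLP0 were above its Day1 libraries, and all 3 of RPLP1, RPLP2 and RPL12 were below theirs. RPL12 was named after its values were seen. The share of members that fell (10.5%) was near that of all genes (11.5%), so these falls do not set the stalk apart.

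The Day2 libraries carry these differences together with the lowest depth and the fewest genes detected of the daily series, and the part of either was not tested. The 27 risers had a median transcript GC content of 50.2% and the 8 fallers of 53.7%, with overlapping ranges (42.7% to 59.5% and 46.3% to 60.6%), and across the 76 members the Spearman correlation of the change with GC content was -0.23. Higher calls numbered 16, 7 and 12 without Day1 replicates 1, 2 and 3, and 17 and 13 without Day2 replicates 1 and 2; lower calls numbered 4 without Day1 replicate 2 and 5 without Day2 replicate 1 or 3.

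From Day2 to Day3, at the somite stage, 10 members rose (13.2%) and 22 fell (28.9%), where 11.6% of all genes were called higher and 11% lower. This comparison uses the Day2 libraries again, as the denominator, so its values and those of Day2 against Day1 are not independent. RPS21 read 1262, 839 and 787 CPM at Day3, against 218, 517 and 236 CPM at Day2, and was 2.97-fold higher (adjusted p = 0.00126, edgeR). RPS28 read 267, 158 and 256 CPM at Day3, against 89.8, 125 and 122 CPM at Day2 (log2 1.02, SE 0.23), RPLP2 354, 255 and 281 CPM, against 158, 185 and 135 CPM (log2 0.90, SE 0.18), and RPS10 250.1, 179 and 299 CPM, against 139, 158 and 100.3 CPM (log2 0.88, SE 0.20). These had the 4 largest called rises, and in each every Day3 library was above every Day2 library. RPL13 and RPL13A also rose, RPL13 to 493, 376 and 391 CPM at Day3, against 283, 321 and 246 CPM at Day2 (log2 0.57, adjusted p = 0.0111).

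The largest falls at Day3 were of RPL30, RPS27, RPL19 and RPL27. RPL30 read 362, 378 and 124 CPM at Day3, against 597, 728 and 491 CPM at Day2, and was 2.1-fold lower (adjusted p = 0.0161, edgeR). RPS27 read 152, 189.7 and 51.4 CPM at Day3, against 281, 333 and 196 CPM at Day2 (log2 -1.05, SE 0.32). RPL19 read 3180.3, 3058 and 1426 CPM at Day3, against 5422, 5793 and 4507 CPM at Day2 (log2 -1.04, SE 0.22), and RPL27 209, 257 and 66.8 CPM, against 395, 386 and 274 CPM (log2 -0.99, SE 0.32). No Day3 library reached a Day2 library in these 4 members, and replicate 3 was the lowest Day3 library in each. RPS19 read 1052, 813 and 670.3 CPM at Day3, against 1589.8, 1299 and 1019.8 CPM at Day2 (log2 -0.62, adjusted p = 0.0174); replicate 1 of Day3 lay within the Day2 range. RPL5 read 2858, 2952 and 1567 CPM at Day3, against 4835, 4642 and 3824 CPM at Day2 (log2 -0.85, adjusted p = 0.00436). The balance of calls turned round with library totals, to 19 higher and 7 lower. With limma on log2(TPM + 1) it turned to 21 higher and 10 lower. None of the named members changed direction under either. Library totals moved the median of all genes by 0.24 log2. Relative to that median the members' median was -0.33 with either scaling. This follows from shifting all genes almost alike and does not show which balance is right. Lower calls numbered 10 without Day2 replicate 1 or 2, 37 without Day2 replicate 3 and 13 without Day3 replicate 3. With only the 6 libraries of these days there were 6 higher and 4 lower calls. Across the 76 members the change had a Spearman correlation of 0.35 with transcript GC content, whose part was not tested.

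Between the ends of the daily series, calls of members were on the higher side. At Day3 against Day0, 33 members were called higher (43.4%), 19 of the large and 14 of the small subunit, where 9.97% of all genes were called higher. No member was called lower (edgeR), where 11.5% of all genes were; at an unadjusted p under 0.05, 57 members were higher and 0 lower, and DESeq2 called 0 lower. The median log2 change was 0.50, with 72 of 76 members above 0, against a median of 0.04 over all genes. Genes no longer than the upper quartile of the members (452 tested) had a median of 0.31. Across the 76 members the change had a Spearman correlation of -0.34 with transcript length, whose part was not tested. RPS18 read 791, 876 and 442 CPM at Day3, against 369.8, 347 and 412 CPM at Day0 (log2 0.90, SE 0.21, adjusted p = 0.00465, edgeR), with no overlap. RPL13 read 493, 376 and 391 CPM at Day3, against 251, 242 and 244 CPM at Day0 (log2 0.77, SE 0.15, adjusted p = 0.00105), also without overlap.

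RPL31, at the exit of the peptide tunnel, had the largest called rise, but its Day3 libraries differed widely. It read 482, 537 and 182 CPM at Day3, against 200.1, 200.2 and 209.7 CPM at Day0 (log2 0.98, SE 0.28, adjusted p = 0.0204), and replicate 3 of Day3 lay below the Day0 libraries. The same held for RPL27, with 209, 257 and 66.8 CPM at Day3, against 89.3, 93 and 94.2 CPM at Day0 (log2 0.94, SE 0.32). RPL30 read 362, 378 and 124 CPM at Day3, against 122, 145 and 175 CPM at Day0 (log2 0.97, SE 0.30), with replicate 3 of Day3 inside the Day0 range. RPL22, a large subunit protein whose loss blocks T cell development in the mouse, read 720.1, 577 and 662 CPM at Day3, against 848, 611 and 716 CPM at Day0, and was not called in any daily comparison. RPSA, the laminin receptor precursor, read 1607, 1468 and 1319 CPM at Day3, against 1229, 1144 and 1279 CPM at Day0, and RPL10 read 420.4, 409 and 369.6 CPM, against 302, 315 and 335 CPM; neither was called. Higher calls numbered 52 without Day3 replicate 3, 8 without Day3 replicate 1 and 13 without Day0 replicate 2, and 43 in a fit without the 3 Day2 libraries, chosen after seeing the data. They numbered 53 with library totals and 21 with only the 6 libraries of these days.

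The 46 course libraries offered the same members at finer steps, in libraries that took no part in the daily calls. The log2 ratio of the 8 members that fell at Day2 to the 27 that rose was the difference of their mean log2 CPM. It was -0.47 to -0.37 in the Day0 libraries, -0.88 to -0.34 at Day1 and -2.45 to -2.09 at Day2. At Day3 it was -1.16 to -0.12. The Day1 and Day2 values follow from how the 2 sets were chosen. In the course it was -0.60 to 0.13 at 30 to 90 min (6 libraries), -0.91 to -0.25 at 120 to 270 min (12 libraries) and -0.25 to 0.13 at 300 to 690 min (28 libraries). None of the 46 course libraries reached the Day2 values. These 3 spans were marked off after the values were seen. Between neighbouring times the ratio was -0.41 and -0.75 at 270 min and 0.11 and -0.06 at 300 min (replicates 1 and 2). The labels give no batch of library preparation, so a batch and a change with time cannot be told apart at this step, which also enters the trends and span means of the course. The middle span had the lowest median depth, with 3.48 M counts at 120 to 270 min, against 4.10 M at 30 to 90 min and 4.40 M at 300 to 690 min. Genes detected at equal depth had medians of 13788, 13798 and 13462 in the same order of spans. The part of depth and detection in the ratio was not tested.

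Along the course, 60 of 76 members differed among the 23 times (78.9%), where 28.9% of the 13653 genes tested were called (edgeR, 22 degrees of freedom). The highest of the 23 time means was 1.32 to 2.73 times the lowest, with a median of 1.80 over the members. The highest mean fell at 120 to 270 min for 37 members, at 300 to 690 min for 37 and at 30 to 90 min for 2. Of the 27 members that rose at Day2, 24 had their highest course mean at 120 to 270 min. All 8 that fell had theirs at 300 to 690 min, the longest span. Of the 41 members with no call at Day2, 26 also had theirs at 300 to 690 min and 13 at 120 to 270 min. The spans were marked off after the ratio of the same 8 and 27 members was seen. These counts therefore only describe the libraries and were not tested.

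RPL27 showed the early maximum. Its course values ran from 82.7 to 261 CPM with a median of 133 CPM, and it read 134 and 121 CPM at 30 min, 239 and 256 CPM at 150 min, 232 and 251 CPM at 270 min, 108 and 82.7 CPM at 330 min and 82.7 and 113 CPM at 690 min. Replicate 2 at 450 min, with 261 CPM, was as high as the libraries at 150 min. RPL30 averaged 219 CPM over 30 to 90 min, 345 CPM over 120 to 270 min and 192 CPM over 300 to 690 min. RPL31 averaged 309 CPM, 473 CPM and 281 CPM over the same spans, and RPL19 1929 CPM, 2699 CPM and 1745 CPM. All 4 were thus highest in the middle span. RPS12 averaged 1131 CPM, 1748 CPM and 1180.0 CPM, with its highest time mean of 2186 CPM at 150 min (adjusted p among times = 7.61e-06, edgeR).

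A linear trend over the course was called for 21 members that fell (27.6%) and 3 that rose (3.95%), where 17.5% of all genes were called lower and 16.1% higher. Fitted changes from 30 to 690 min had a median of -0.12 log2 over the members and -0.02 over all genes. The largest falls were of RPL27 (log2 -0.80, SE 0.18, adjusted p = 0.000267), RPL30 (log2 -0.73, SE 0.19, adjusted p = 0.0016), RPL31 (log2 -0.65, SE 0.18, adjusted p = 0.00278) and RPL19 (log2 -0.58, SE 0.15, adjusted p = 0.00169), all with edgeR. No member was called lower within the first 12 or within the last 12 times. Within the last 12, RPL30 and RPL31 had slopes of 0.15 and 0.10 log2 per full span of 30 to 690 min. The change fitted within those 12 times is smaller, as they cover only part of that span. Lower calls numbered 13 without the 23 replicate 2 libraries and 1 without the 23 replicate 1 libraries. RPLP0 of the stalk fell by little (1188 to 2139 CPM over the course, log2 -0.22, adjusted p = 0.0493), and so did RPS6 (859 to 1469 CPM, log2 -0.33, adjusted p = 0.00257).

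The 3 risers were RPL36A, RPS21 and RPL26. RPL36A read 1188 and 1290.2 CPM at 30 min, 1763 and 1594 CPM at 270 min, 3687 and 2876 CPM at 510 min and 1217 and 1666 CPM at 690 min, with a fitted change of 0.80 ± 0.17 (SE) log2 (adjusted p = 0.000126, edgeR). RPS21 read 907 and 991 CPM at 30 min, 1070.3 and 866 CPM at 270 min, 2106 and 1744 CPM at 510 min and 614 and 800.4 CPM at 690 min (log2 0.50, SE 0.17, adjusted p = 0.0158). RPL26 read 1382 and 1422 CPM at 30 min, 3276 and 2231 CPM at 510 min and 1286 and 1427 CPM at 690 min (log2 0.46, SE 0.14, adjusted p = 0.0077). Each had its highest mean at 510 min. The 690 min libraries of RPL36A and RPL26 overlapped those of 30 min, and those of RPS21 lay below them. Within the last 12 times the slope of RPS21 was -0.40 log2 per full span of 30 to 690 min. Replicate 1 at 510 min, the highest library for all 3, detected 12784 genes at equal depth, below the course median of 13562; its part was not tested. Only 1 riser was called without the replicate 2 libraries.

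**Figure D4:**
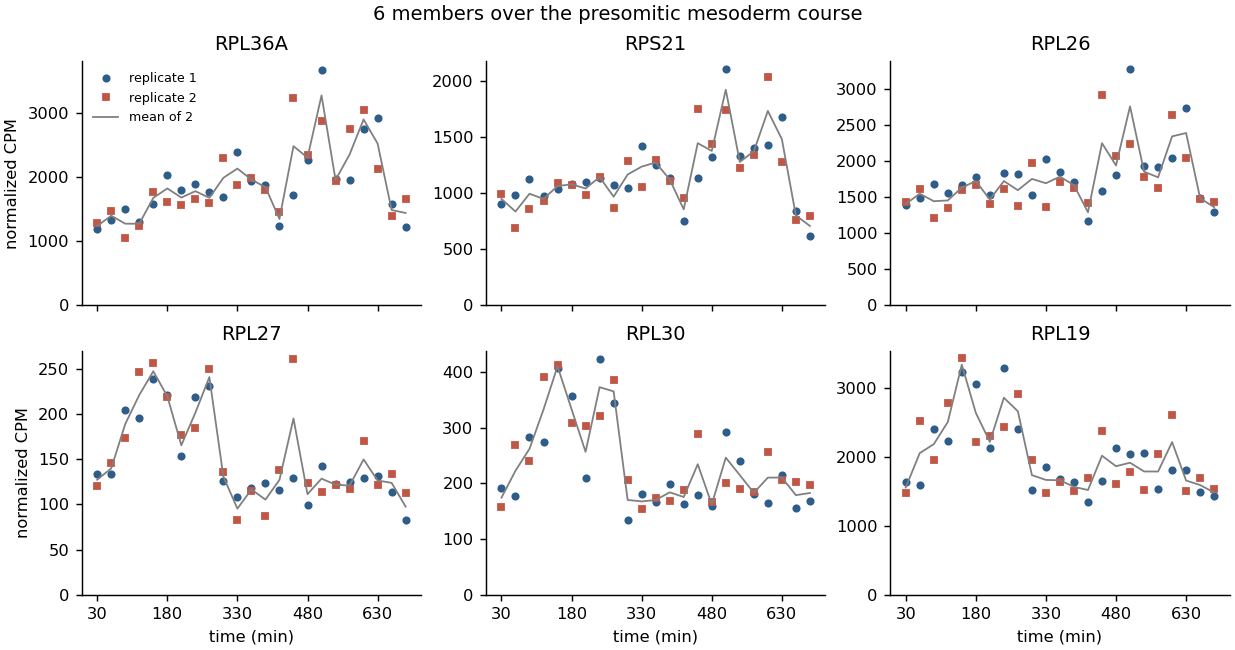
Normalized CPM of 6 members against time in the course (min), with both replicates and their mean, each panel starting at 0. RPL36A, RPS21 and RPL26 in the upper row have their highest mean at 510 min, and RPL27, RPL30 and RPL19 in the lower row at 150 min.

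No member was called with a 300 min rhythm, near the pace of the segmentation clock (edgeR, cosine and sine terms beside a quadratic trend), where 0.132% of all genes were, 18 in number. At an unadjusted p under 0.05 there were 33 members (43.4%), against 12.6% of all genes, and the smallest adjusted p of a member was 0.058, for RPS12. The median fitted amplitude of the members was 0.11 log2, against 0.13 over all genes. With a period of 330 min 25 members were called, where 4.5% of all genes were, without the filter on low counts 23, where 3.75% of all genes were, and leaving out single libraries gave up to 10, without replicate 1 at 210 min.

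Relatives of the members outside the naming rule were read from a list of paralogs and fusion genes, 11 of which were tested. GNB2L1, also known as RACK1, a scaffold on the small subunit, rose to 2487, 2672 and 1884 CPM at Day2, against 1341, 962 and 1272 CPM at Day1 (log2 0.98, adjusted p = 0.0309, edgeR), and fell to 1466, 1652 and 484 CPM at Day3 (log2 -0.97, adjusted p = 0.0296). RPL22L1, the paralog of RPL22, fell to 77.8, 136 and 113 CPM at Day2, against 232, 307 and 229 CPM at Day1 (log2 -1.23, adjusted p = 0.00709), and RPL7L1 fell with a log2 change of -0.68 (adjusted p = 0.00686). RPL7L1 was also lower at Day3 than at Day0 (log2 -0.68, adjusted p = 0.00435), the 1 paralog called lower there. RPS27L, the paralog of RPS27, rose at Day3 to 43, 30.7 and 39 CPM, against 14.2, 15.4 and 16.5 CPM at Day0 (log2 1.29, adjusted p = 0.00268). FAU, which encodes the fusion precursor of RPS30, rose by 0.65 log2 at Day3 against Day0, and RPS4X fell at Day3 against Day2 (log2 -0.43). Along the course GNB2L1 fell (log2 -0.67, adjusted p = 0.0022), as did RPL10L (log2 -1.18, adjusted p = 0.00659), although reads may be shared between it and RPL10. RPL36AL averaged 279 ± 56.4 CPM at Day3 and 248 ± 53.9 CPM at Day0, RPL26L1 41.4 ± 12.8 and 24.6 ± 7.04 CPM, and RPL39L 13.7 ± 1.79 and 13.3 ± 3.25 CPM (SD, n = 3 each), none of them called; RPL3L was below the filter.

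Other mRNAs listed as having TOP motifs, for translation factors and their partners, were also read. Their start bases were not examined here. Most of the calls made among them were higher at Day2 against Day1 and lower at Day3 against Day2. Of 18 tested, 7 rose (38.9%, against 8.67% of all genes) and 1 fell (5.56%, against 11.5%) at Day2 against Day1. At Day3 against Day2, 2 rose (11.1%, against 11.6% of all genes) and 8 fell (44.4%, against 11%). At Day3 against Day0, 3 rose (16.7%, against 9.97% of all genes) and 1 fell (5.56%, against 11.5%). EEF1B2, a subunit of the exchange factor of elongation factor 1, rose at Day2 (log2 0.80, adjusted p = 0.00528), as did NACA, which binds nascent chains (log2 0.73). EIF4B fell at Day1 (log2 -0.40) and GLTSCR2 at Day2 (log2 -0.67, adjusted p = 0.0376). BTF3, the partner of NACA, fell at Day3 against Day2 (log2 -0.92, adjusted p = 0.00636). Along the course 5 fell (27.8%, against 17.5% of all genes) and 1 rose (5.56%, against 16.1%), with the largest falls for EEF1B2 (log2 -0.43) and PABPC1, the poly(A)-binding protein (log2 -0.40), and a rise of HNRNPA1 (log2 0.36).

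Genes of ribosome biogenesis, which make and assemble the subunits in the nucleolus, were called mostly lower at Day3. At Day3 against Day0, 17 of 33 fell (51.5%, against 11.5% of all genes), with a median log2 change of -0.72, against a median of 0.50 for the members. NOP16, a nucleolar protein of large subunit assembly, read 34.3, 29.9 and 46 CPM at Day3, against 146, 136 and 162 CPM at Day0 (log2 -2.0, SE 0.21, adjusted p = 4e-06, edgeR). TSR1, which acts in small subunit maturation, read 87.7, 98.3 and 147 CPM at Day3, against 314, 363 and 377 CPM at Day0 (log2 -1.66, adjusted p = 3.67e-05). No library of Day3 reached those of Day0 in either gene. At Day3 against Day2, 20 of 33 fell (60.6%, against 11% of all genes), led by NOP16 (log2 -1.56) and the rRNA methyltransferase NOP2 (log2 -1.36). At Day2 against Day1, 3 rose and 3 fell (9.09% each, against 8.67% and 11.5% of all genes), among them FBL, the methyltransferase of box C/D particles (log2 0.78), NMD3, an export adaptor (log2 0.64), BOP1 (log2 -1.07) and NOLC1 (log2 -0.91). SBDS, which frees the large subunit of EIF6, was the 1 gene called at Day1 (log2 0.97). In the course 19 fell (57.6%, against 17.5% of all genes) and 2 rose (6.06%, against 16.1%), with RRP9 (log2 -0.88) and BOP1 (log2 -0.82) the largest falls, and UBTF (log2 0.38) and RRN3 (log2 0.29), both of RNA polymerase I initiation, the rises.

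Among mitochondrial ribosomal proteins, which serve the separate ribosome of the mitochondrion, most of the calls made at Day2 against Day1 were lower. Of 76 tested, 23 fell (30.3%, against 11.5% of all genes) and 1 rose (1.32%, against 8.67%) at Day2 against Day1, with a median log2 change of -0.49, against 0.29 for the cytosolic members. MRPL53 (log2 -2.65) and MRPS2 (log2 -1.91) had the largest falls, and MRPS14 rose (log2 0.71). Genes no longer than the upper quartile of the cytosolic members (452 tested) also fell at Day2, with a median log2 change of -0.32. Of them 13.1% were called lower and 3.98% higher. At Day3 against Day2, 10 rose (13.2%, against 11.6% of all genes) and 2 fell (2.63%, against 11%). The largest rises were of MRPL53 (log2 3.48) and MRPL41 (log2 2.24), and the falls of MRPL39 (log2 -0.83) and MRPS35 (log2 -0.64). The list had a median of 0.27 log2, and the 452 short genes one of 0.25, with 14.2% called higher and 6.42% lower. The part of length was not tested. At Day3 against Day0, 7 fell (9.21%, against 11.5% of all genes) and 1 rose (1.32%, against 9.97%), led by MRPL42 (log2 -1.35), MRPS35 (log2 -1.18) and MRPS6 (log2 1.16). In the course 10 rose (13.2%, against 16.1% of all genes) and 11 fell (14.5%, against 17.5%), with MRPS6 (log2 1.89) and MRPS14 (log2 0.50) the largest rises, MRPL12 (log2 -0.67) and MRPL34 (log2 -0.67) the largest falls.

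Of 17 known regulators of ribosome production, 1 rose and 1 fell at Day1 (5.88% each), and 2 rose (11.8%) and 3 fell (17.6%) at Day2 against Day1. At Day3 against Day2, 3 rose and 3 fell (17.6% each), at Day3 against Day0, 3 rose (17.6%) and 5 fell (29.4%), and in the course 4 rose (23.5%) and 3 fell (17.6%). Over all genes 3.69% were called higher and 3.6% lower at Day1, and the shares in the other comparisons are as above. MYC, an activator of ribosomal genes, fell to 4.44, 7.06 and 1.2 CPM at Day2, against 69.4, 53.8 and 49.5 CPM at Day1 (log2 -3.79, adjusted p = 1.92e-05, edgeR), and read 22.3, 24.3 and 33.9 CPM at Day3 (log2 2.69 against Day2). Its relative MYCN fell at Day1 (log2 -2.07), rose at Day2 (log2 1.01) and stood lower at Day3 than at Day0 (log2 -1.28). EIF4EBP2, a repressor of cap-dependent translation, fell at Day2 (log2 -0.74) and RPS6KB1, an S6 kinase, rose (log2 0.64). At Day3 against Day2 MXD4, a MAX partner that opposes MYC, rose (log2 3.34), while YY1 (log2 -0.76) and RPS6KB1 (log2 -0.60) fell. CDKN1A, a cell cycle inhibitor, rose at Day1 (log2 2.27) and was higher at Day3 than at Day0 (log2 3.95), with MXD4 (log2 3.12); MYC was lower (log2 -1.14). In the course MYCN (log2 1.82) and MXD4 (log2 1.59) rose, and CDKN1A (log2 -0.79) and GABPA, an ETS factor (log2 -0.54), fell.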

How the data were processed

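RNA-seq libraries were made by LM-seq from total RNA of multiwell cultures, per the labels' protocols. The authors deposited a table of expected counts, with fractions, and a table of TPM. Their quantification program, strand use and molecular identifiers are not given in these sources. The submitters' processing notes name Bowtie 0.12.2, hg19 and mm8 without roles. Expected counts were rounded and tested with edgeR 4.0.16 in R 4.3.3 (quasi-likelihood F tests, TMM, filterByExpr), with Benjamini-Hochberg adjustment over all genes and calls at 0.05 with no fold limit; daily contrasts came from a fit of all 12 daily libraries. CPM values of members and other named genes use TMM library sizes, without a pseudocount. Marker CPM use library totals, also without a pseudocount, and are thus not on the same scale. The log2 ratio of the members that fell to those that rose at Day2 uses library totals with a pseudocount of 0.5 on CPM. Alternatives used limma 3.58.1 and DESeq2 1.42.0. The tests were tested on simulated data. Total counts per library ran from 2.53 to 8.96 M; intervals would cover counting error only, and none are given. Replicate libraries differed well beyond sampling noise (chi-square per degree of freedom at least 3.82), so all were counted separately. Members and lists were chosen with earlier results of these data known. Named members are the 4 called rises and 4 called falls of largest log2 size per comparison, the 5 highest and 5 lowest by TPM, and 12 with known roles; named other genes are the listed paralogs, apart from items not reported here, and, per list, the 2 largest called rises and falls. RPL12, RPL13A and RPS2, and values of RPL13 beyond its TPM, were named after their values were seen. Promoter sequences are from RefSeq (GRCh38.p14), whose coordinates are not those of the counting.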

Additional observations from a re-analysis of the deposited data

How the results depend on the processing

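The replicate numbers did not pair the libraries: deviations of same-numbered libraries correlated at -0.11 to 0.17 in the daily series (3 of 18 pairs over 0.1) and at -0.10 to 0.09 in the course (0 of 506). With a replicate block the counts were 58 members over the 4 days, 19 higher at Day1, 26 higher and 8 lower at Day2, 9 higher and 23 lower at Day3 against Day2, 35 higher at Day3 against Day0, and in the course 59 among times, 3 higher and 20 lower by trend and 0 with a rhythm; it moved no count by over 1.5 times. Size factors of DESeq2 in edgeR and TMM over genes that are no member left all counts within 1.5 times. Library totals gave 14 higher at Day2, 19 higher and 7 lower at Day3 against Day2 and 53 higher at Day3 against Day0. limma on log2(TPM + 1) gave 7 higher at Day1, 11 higher and 14 lower at Day2, and 21 higher and 10 lower at Day3 against Day2; a pseudocount of 0.1 gave 6, 11, 14, 20 and 7. With only the 6 libraries of the days compared, calls were 47 higher at Day1, 6 higher and 4 lower at Day3 against Day2 and 21 higher at Day3 against Day0; DESeq2 called 25 higher at Day1. An added limit of 1 on the absolute log2 change left 2 higher at Day1, 1 higher and 2 lower at Day2, 2 higher and 3 lower at Day3 against Day2, 0 higher at Day3 against Day0 and 0 higher and 0 lower by trend. Leaving out each library gave 0 to 35 higher at Day1, 7 to 34 higher and 4 to 9 lower at Day2, 7 to 13 higher and 10 to 37 lower at Day3 against Day2, 8 to 52 higher and 0 lower at Day3 against Day0, 50 to 61 over the 4 days, and in the course 3 higher and 15 to 23 lower by trend and 0 to 10 with a rhythm. Leaving out all 23 libraries of a replicate gave trends of 1 higher and 13 lower without replicate 2 and 3 higher and 1 lower without replicate 1. The trend gave 0 lower within the first 12 times and 0 higher and 0 lower within the last 12, where RPS21 (-0.40), RPL30 (0.15), RPL31 (0.10) and RPL5 (0.10, log2) turned their direction. A period of 330 min gave 25 members with a rhythm and no filter on low counts 23. Apart from the rhythm fits, shares of all genes under these settings are not given, so these counts are not read against a background. The causes were not tested. Depth within the daily series was lowest at Day2, where the members diverged most, and strand and copies of members limit single values.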
